A study of Mus musculus with 6 samples.

Results

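Tropomyosins and tropomodulins were described in C2C12 cells after transfection with an siRNA against calponin 3 (CNN3). The 7 genes Tpm1, Tpm2, Tpm3, Tpm4, Tmod1, Tmod2 and Tmod3 were taken by name, and every transcript of them in the deposited table was kept. These were 29 of 24023 transcripts and 6 of 11835 genes: 16 transcripts of Tpm1, 4 of Tpm2, 6 of Tpm3, and 1 each of Tpm4, Tmod1 and Tmod3. Tmod2 had no transcript among them and was not analysed here. The data are RNA-seq values of 6 libraries, 3 from cells given a negative control siRNA (siNC) and 3 from cells given the CNN3 siRNA (siCNN3). C2C12 is an established mouse myoblast line that forms myotubes in medium with horse serum, and the cell type of all 6 samples is labelled mouse myotube. The study's methods describe the sequenced cells as differentiating myoblasts, and cells to be differentiated were transfected a second time. No sample was left untransfected, and which of the study's CNN3 siRNAs the sequenced cells received is not stated. Nothing says that the 3 libraries of a group came from separate cultures, so the p-values measure only the spread between these libraries, which may be technical.

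Tropomyosin is a coiled coil that lies along the actin filament and sets which other proteins, such as myosin, cofilin and calponin, can reach it. In sarcomeres it carries the troponin complex and makes contraction depend on calcium. Between them these genes give several forms by alternative promoters (exon 1a for long forms, exon 1b for short forms) and by alternative exons. The exon choices lie at exon 2, exon 6 and the last coding exon, and not every gene has each of them. All complete Tpm2 transcripts here carried exons 1a and 2b. Forms that end in exon 9a are typical of striated muscle, and forms that end in exon 9d are found in stress fibres and in smooth muscle. Tropomodulins cap the slow-growing (pointed) end of the filament and bind tropomyosin there. Tmod1 is the form of striated muscle and red blood cells, and Tmod3 is found in most cell types.

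The results below turn on 2 such choices, exon 6 and the last exon of Tpm2, so the coding parts of these exons are shown as the transcripts carry them. In GRCm38 they lie on the minus strand at chr4:43519003-43519078 (6a), chr4:43518644-43518719 (6b), chr4:43515924-43516003 (9a) and chr4:43514782-43514861 (9d). Sequences read 5′ to 3′, and capitals mark the bases at which the exons of a pair differ.
Tpm2 exon 6a: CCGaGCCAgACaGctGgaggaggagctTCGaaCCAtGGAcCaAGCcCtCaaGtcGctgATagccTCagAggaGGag
Tpm2 exon 6b: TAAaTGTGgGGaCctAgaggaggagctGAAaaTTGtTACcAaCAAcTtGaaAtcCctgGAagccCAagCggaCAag
Tpm2 exon 9a: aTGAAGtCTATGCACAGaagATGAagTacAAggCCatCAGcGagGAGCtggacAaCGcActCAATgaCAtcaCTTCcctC
Tpm2 exon 9d: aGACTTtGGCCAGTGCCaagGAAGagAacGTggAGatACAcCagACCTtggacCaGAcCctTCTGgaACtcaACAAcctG
Exons 6a and 6b differ at 35 of 76 bases and exons 9a and 9d at 47 of 80. Across genes the same exon is more alike: exon 9a of Tpm1 and exon 9a of Tpm2 are 82.5% identical and the 2 exons 9d are 71.3% identical, compared with 43.8% between exons 9a and 9d of Tpm1. The exon 9a pair of Tpm1 is shown for that comparison, at chr9:67029663-67029742 (9a) and chr9:67023362-67023441 (9d), also on the minus strand.
Tpm1 exon 9a: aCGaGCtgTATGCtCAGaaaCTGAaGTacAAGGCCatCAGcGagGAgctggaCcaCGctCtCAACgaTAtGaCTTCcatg
Tpm1 exon 9d: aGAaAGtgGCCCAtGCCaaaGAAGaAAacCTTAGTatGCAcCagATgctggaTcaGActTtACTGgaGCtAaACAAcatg

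Values are FPKM (fragments scaled to transcript length and library size), a level per length on which genes can be compared. The read numbers are not given, so depth and counting error are unknown. The sum over all transcripts of a library was between 322621 FPKM (siNC replicate 1) and 355591 FPKM (siCNN3 replicate 1). Cnn3, the targeted gene, had 62.8, 61.4 and 62.8 FPKM in siNC and 19.0, 39.2 and 25.6 FPKM in siCNN3. The groups did not overlap, and the log2 fold change was -1.19 (95% confidence interval -1.76 to -0.62, adjusted p = 0.067 by limma), which missed the threshold of 0.05. Of 15 muscle markers, 11 were tested and 3 fell (Acta1, Tnnt3 and Myh3, against 0.336% of all genes tested), with a summed level of 158.5 to 181.7 FPKM in siNC and 108.6 to 123.2 FPKM in siCNN3. Most of that sum was Des (desmin, also among the smooth muscle markers), which was not called, at 113.0 to 125.1 FPKM in siNC and 84.3 to 103.2 FPKM in siCNN3. Of the 11 tested, 1 had a log2 fold change above 0: Myf5 (a myogenic factor of myoblasts) had 3.55, 5.64 and 4.84 FPKM in siNC and 13.0, 11.4 and 5.40 FPKM in siCNN3 (log2 fold change 0.88, adjusted p = 0.238 by limma). Ckm (muscle creatine kinase), below the filter and not tested, was listed at 0 in 2 siCNN3 libraries. Myf5 and Ckm were chosen after their values were seen, and Myh8, Actc1 and Ttn were not analysed here. In bulk RNA, fewer cells of a type and less RNA per cell cannot be told apart. Of 11 interferon response genes 8 rose (1.73% of all genes tested did), and their summed level was 20.6, 369.4 and 97.6 FPKM in siNC and 3326, 3236 and 1658 FPKM in siCNN3. The 7 blood and immune markers tested, mostly globins, summed to 248.9, 680.3 and 251.7 FPKM in siNC and 86.2, 91.9 and 66.3 FPKM in siCNN3, and 2 of them fell (Hbb-bs and Hbb-bt); Alas2 and the leukocyte marker Ptprc were not analysed here. The smooth muscle and endothelial markers summed to 417.7 to 591.2 FPKM in siNC and 306.0 to 352.7 FPKM in siCNN3. Limma called 0 of these 6, with 4 at an unadjusted p below 0.05, against 2.06% and 16.1% of all genes tested. Most of this sum was Acta2 and Des, and the endothelial marker Tek was the 1 of 6 with a log2 fold change above 0 (0.09). Myh11, Pecam1, Cdh5 and Kdr were not analysed here. The fibroblast and fat cell markers, mostly Col1a2 and Dcn, summed to 505.5 to 580.7 and 380.7 to 407.3 FPKM. Fabp4, 1 of 6, fell (0.336% of all genes tested did), and Pparg was the 1 above 0 (0.21). Lum, Thy1, Adipoq and Plin1 had no values here. The part of these differences in the tropomyosin values was not tested.

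No tropomyosin or tropomodulin gene passed the test between siNC and siCNN3: limma called 0 of the 6, compared with 2.06% of the 11593 genes tested, and 1 of the 6 (Tpm2) was at an unadjusted p below 0.05 (16.1% of all genes). The log2 fold changes ran from -0.67 to 0.30, 4 below 0 and 2 above. In 3 of the 6 genes the groups did not overlap, against 23.1% of all genes tested: Tpm2 was lower in siCNN3 (9.35% of all genes) and Tpm3 and Tmod3 were higher (13.8%). In siNC the order of the means was Tpm4, Tpm1, Tpm3, Tpm2, Tmod3 and Tmod1, and the libraries of Tpm3 and Tpm2 overlapped each other. In siCNN3 the order was the same, but there Tpm1 and Tpm3 overlapped and Tpm3 and Tpm2 did not.

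**Figure D1:**
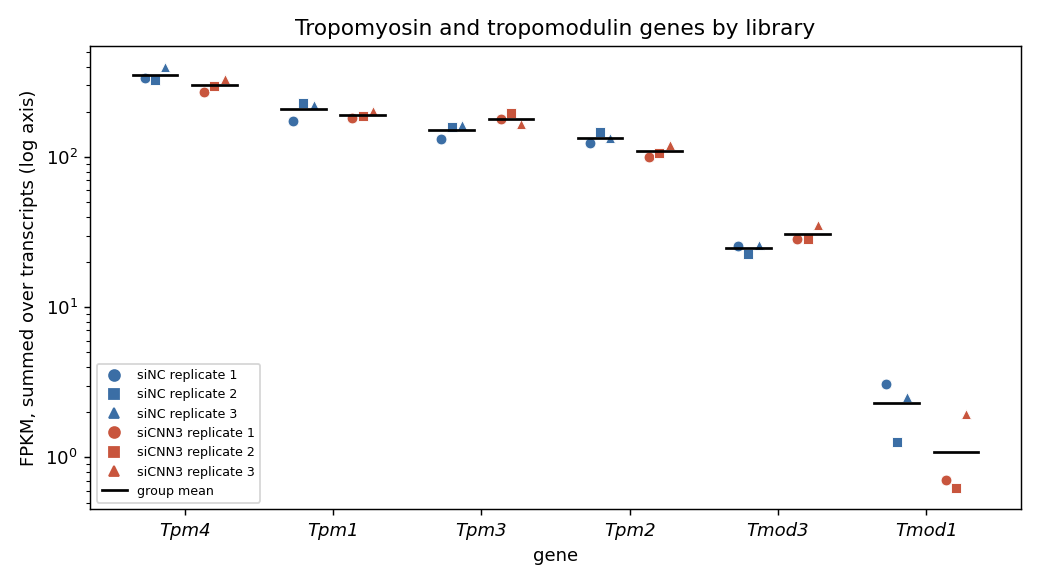
FPKM of each gene, summed over its transcripts, on a log axis, with 1 point per library and a bar at the group mean (n = 3). The 3 siCNN3 libraries lie below the 3 siNC libraries for Tpm2 and above them for Tpm3 and Tmod3, and the groups overlap for Tpm4, Tpm1 and Tmod1.

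Tpm4 (chromosome 8, 72134975 to 72153142, plus strand), which encodes a short form of the cytoskeleton, was the highest of the 6 genes. Its only transcript analysed, Tpm4-201 (exons 1b, 6b and 9d), had 336.6, 326.5 and 398.2 FPKM in siNC and 273.0, 296.9 and 330.8 FPKM in siCNN3. The siCNN3 libraries were the lower ones on average, but the highest of them was above the lowest siNC library. The siNC libraries averaged 353.7 ± 38.8 FPKM and the siCNN3 libraries 300.2 ± 29.1 FPKM (SD, n = 3), and the log2 fold change was -0.23 (95% confidence interval -0.52 to 0.05, adjusted p = 0.390 by limma).

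Tpm2 (chromosome 4, 43514711 to 43523765, minus strand) encodes β-tropomyosin, whose muscle and non-muscle forms come from the exons shown above. The gene had 123.9, 146.1 and 133.6 FPKM in siNC and 100.9, 105.7 and 120.5 FPKM in siCNN3. The groups did not overlap, and all 3 siCNN3 libraries were the lower ones. The siCNN3 mean was 81.0% of the siNC mean (109.0 ± 10.2 against 134.5 ± 11.1 FPKM, SD, n = 3), and the log2 fold change of -0.30 (SE 0.12, 95% confidence interval -0.58 to -0.03) had an unadjusted p of 0.036 and an adjusted p of 0.269 by limma.

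Nearly all Tpm2 FPKM came from 2 transcripts that differ in both exon pairs. Tpm2-202 carries exons 6b and 9a, the pair of skeletal muscle β-tropomyosin. It had 62.1, 60.9 and 59.6 FPKM in siNC and 41.5, 41.8 and 47.9 FPKM in siCNN3. The siNC libraries had an SD of 1.20 FPKM and the siCNN3 libraries one of 3.60 FPKM, and all siCNN3 libraries were lower. The siCNN3 mean was 71.9% of the siNC mean, the log2 fold change was -0.47 (SE 0.10, 95% confidence interval -0.72 to -0.22), and the unadjusted p of 0.004 became 0.174 after adjustment over all transcripts by limma.

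Tpm2-203 carries exons 6a and 9d, the pair of the non-muscle and smooth muscle form. It had 60.0, 81.0 and 69.5 FPKM in siNC and 56.7, 61.7 and 70.3 FPKM in siCNN3. The groups overlapped, and the log2 fold change was -0.15 (95% confidence interval -0.51 to 0.21, adjusted p = 0.755 by limma). With 1 library left out it ranged from -0.26 (siNC replicate 1) to -0.04 (siNC replicate 2), and that of Tpm2-202 from -0.54 to -0.44. Tpm2-201, with exons 6a and 9a, was between 0.78 and 4.01 FPKM, and Tpm2-206, an incomplete transcript of the first exons, between 0.397 and 1.89 FPKM, with overlapping groups in both.

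**Figure D2:**
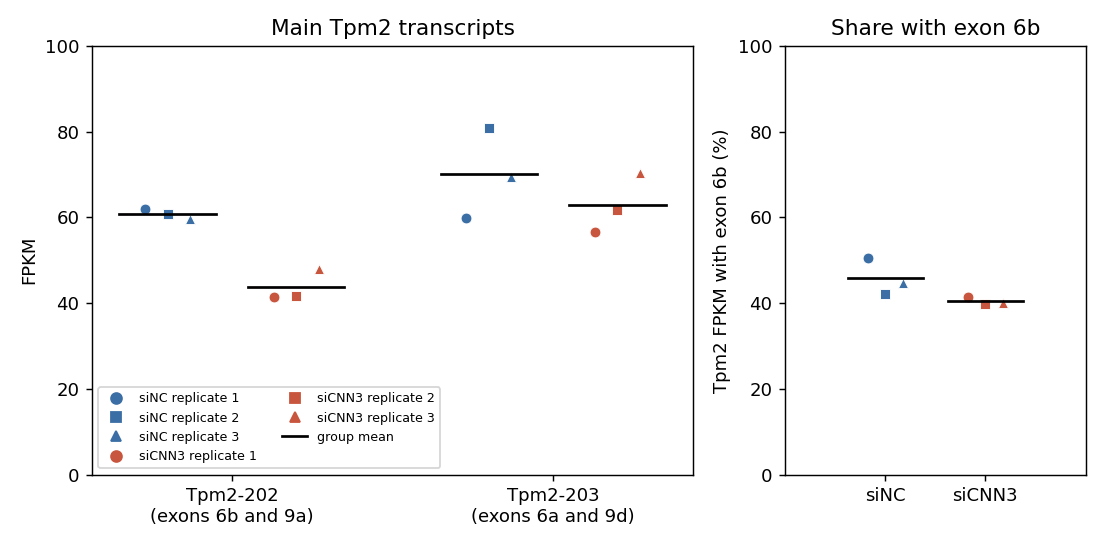
Left, FPKM of the main Tpm2 transcripts, and right, the percentage of FPKM of the complete Tpm2 transcripts that carries exon 6b, with 1 point per library and a bar at the group mean (n = 3). Tpm2-202 lies at 59.6 to 62.1 FPKM in siNC and at 41.5 to 47.9 FPKM in siCNN3, the Tpm2-203 groups overlap, and the exon 6b share is 42.2 to 50.5% in siNC and 39.7 to 41.4% in siCNN3.

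Whether the balance of both Tpm2 forms differed was tested by itself. The ratio of Tpm2-202 to Tpm2-203 was 1.03, 0.752 and 0.858 in siNC and 0.733, 0.677 and 0.681 in siCNN3. All siCNN3 ratios were below all siNC ratios, but siNC replicate 2 was close to them, and the exact permutation p was 0.1, the smallest that 3 against 3 libraries can give (two-sided). Of the FPKM of complete Tpm2 transcripts, exon 6b was carried by 45.8 ± 4.26% in siNC and by 40.4 ± 0.90% in siCNN3 (SD, n = 3), and exon 9a by 47.6 ± 3.66% and 42.0 ± 1.27%. The exon 6b difference was -5.43 percentage points, and -3.08 without siNC replicate 1. On the log2 scale the share of Tpm2-202 in the gene differed by -0.17 (95% confidence interval -0.35 to 0.01, adjusted p = 0.819) and that of Tpm2-203 by 0.15 (0.02 to 0.29, adjusted p = 0.751), both by limma. The share fit called 0 of the 25 transcripts of Tpm1, Tpm2 and Tpm3 (0.0323% of 15479 transcripts), with 1 at an unadjusted p below 0.05, and the test of transcript usage with diffSplice called 0 of these 3 genes (0.984% of 5386 genes), with 0 at an unadjusted p below 0.05. In the annotation the last exon of Tpm2-202 runs on through exon 9d (2098 bases, compared with 1164 for Tpm2-203), so reads of exon 9d fit both transcripts and their split rests on the estimate made upstream.

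Tpm1 (chromosome 9, 67022590 to 67049406, minus strand) encodes α-tropomyosin and has the most forms. It had 173.1, 229.8 and 222.6 FPKM in siNC and 182.0, 188.3 and 201.3 FPKM in siCNN3. The siCNN3 libraries lay within the range of the siNC libraries, and siNC replicate 1 was the lowest of all. The log2 fold change was -0.12 (95% confidence interval -0.43 to 0.19, adjusted p = 0.704 by limma).

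The main transcript was Tpm1-216 (exons 1a, 2b, 6b and 9d), a long cytoskeletal form with 54.4 to 58.9% of Tpm1 FPKM in siNC and 48.2 to 67.1% in siCNN3. It had 101.9, 124.9 and 129.8 FPKM in siNC and 87.7, 126.4 and 98.4 FPKM in siCNN3, with overlapping groups and a log2 fold change of -0.20 (95% confidence interval -0.61 to 0.22, adjusted p = 0.727 by limma), which ranged from -0.34 to -0.08 with 1 library left out (siCNN3 replicates 2 and 1). Tpm1-201 has the exons of striated muscle α-tropomyosin (1a, 2b, 6b and 9a). It had 12.5, 13.3 and 13.0 FPKM in siNC and 8.20, 10.0 and 16.8 FPKM in siCNN3, so 2 siCNN3 libraries were below and 1 was above all siNC libraries. Tpm1-205, with the same coding exons and another end, had 3.96, 4.85 and 5.70 FPKM in siNC and 2.25, 3.32 and 5.05 FPKM in siCNN3, again with replicate 3 the highest of siCNN3. Exon 9a was carried by 9.56 ± 1.08% of Tpm1 FPKM in siNC and 8.74 ± 2.77% in siCNN3 (SD, n = 3).

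Exon 9c is best known from brain tropomyosin. The short form Tpm1-209, which is annotated with it, had 17.0, 16.0 and 17.1 FPKM in siNC and 13.6, 16.8 and 29.3 FPKM in siCNN3, with siCNN3 replicate 3 above all others. Its annotated last exons also run through exon 9d, as those of Tpm2-202 do. Exon 2a is the exon of smooth muscle α-tropomyosin. Tpm1-215, which carries it, had 13.4, 32.8 and 16.5 FPKM in siNC and 17.6, 6.64 and 17.7 FPKM in siCNN3, and siNC replicate 2 and siCNN3 replicate 2 were at opposite ends.

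The spread within a group was wide for transcripts that share most of their exons. Tpm1-202, annotated with both exons 2a and 2b, had 5.65, 0 and 19.1 FPKM in siNC and 18.4, 4.63 and 16.7 FPKM in siCNN3. Tpm1-211 (exons 1b, 6b and 9d) had 2.04, 19.5 and 1.75 FPKM in siNC and 16.8, 5.30 and 1.93 FPKM in siCNN3. In siNC replicate 2 the first was listed at 0 while the second and Tpm1-215 were at their highest. Summed with Tpm1-216, these transcripts had 123.0, 177.1 and 167.1 FPKM in siNC and 140.5, 142.9 and 134.8 FPKM in siCNN3, and the groups overlapped.

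Tpm1-213 (exons 1a, 2b, 6a and 9d) had 5.54, 5.71 and 7.46 FPKM in siNC and 10.6, 7.17 and 2.52 FPKM in siCNN3. With Tpm1-205, 9 Tpm1 transcripts had means below 5 FPKM. Among them Tpm1-206 (exons 1b, 6b and 9b) did not overlap, at 0.745, 0.557 and 0.628 FPKM in siNC and 0.420, 0.447 and 0.420 FPKM in siCNN3, but its log2 fold change of -0.20 did not pass (adjusted p = 0.719 by limma). Tpm1-212 (exons 1b, 6a and 9d) had 2.41, 2.30 and 2.76 FPKM in siNC and 0.011, 0.017 and 2.87 FPKM in siCNN3. It was near 0 in 2 siCNN3 libraries and at the siNC level in the other one. Its log2 fold change of -1.14 did not pass (adjusted p = 0.526 by limma), and without siCNN3 replicate 3 it was -1.78 and passed (adjusted p = 0.029 by limma). Over the gene, 12 of 16 Tpm1 transcripts had a log2 fold change below 0, and exon 6b was carried by 93.2 ± 0.49% of its FPKM in siNC and 93.3 ± 1.59% in siCNN3 (SD, n = 3).

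**Figure D3:**
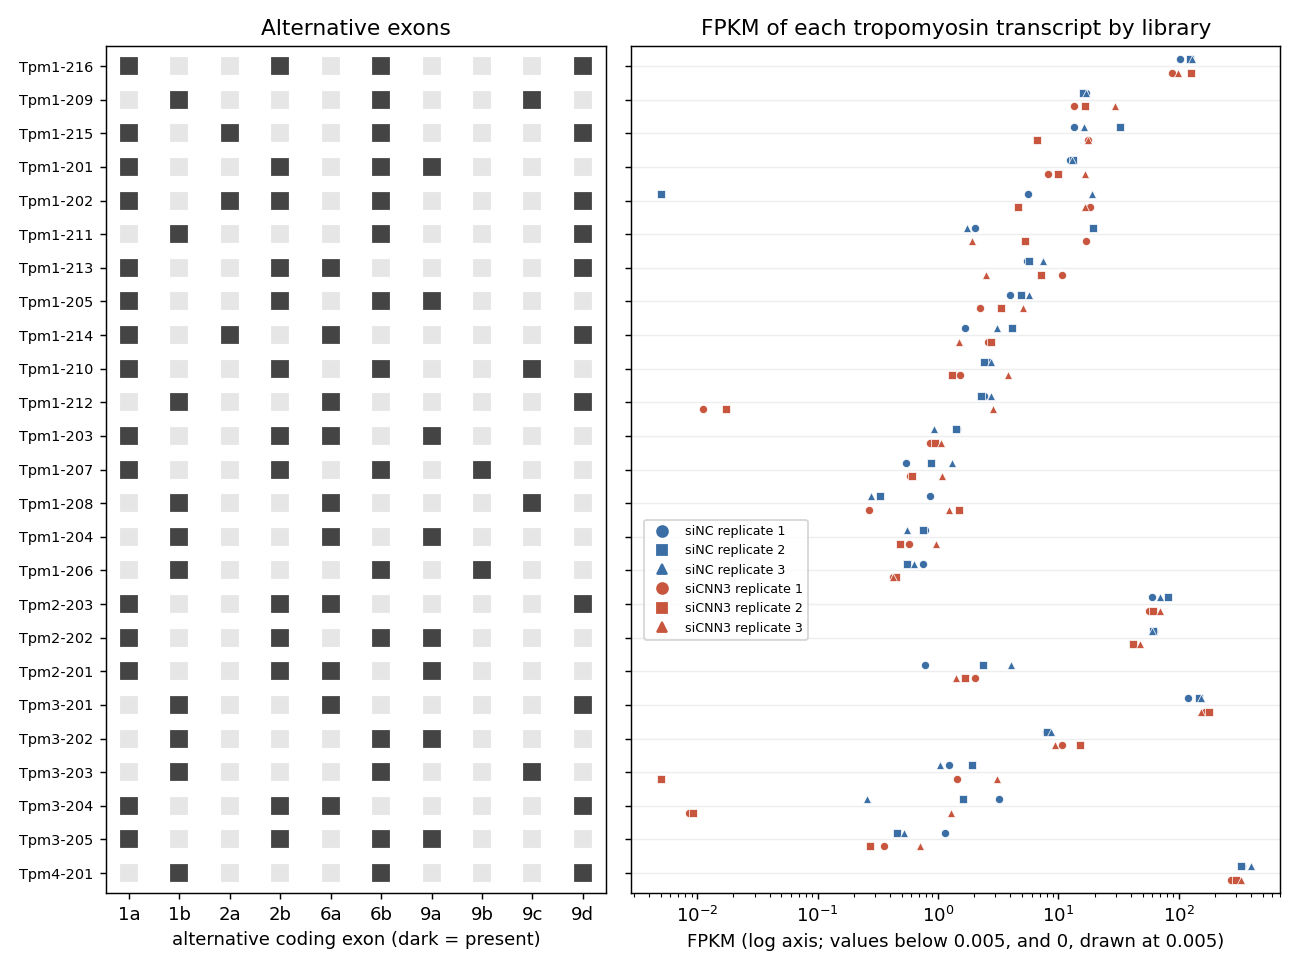
Left, the alternative exons each complete tropomyosin transcript carries (dark), and right, its FPKM in each library on a log axis, with transcripts of a gene ordered by mean and the lowest values drawn at the left edge. Tpm4-201, Tpm3-201 and Tpm1-216 are the highest, and Tpm1-202, Tpm1-211 and Tpm1-212 spread widely within a group.

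Tpm3 (chromosome 3, 90072649 to 90100902, plus strand) encodes the slow muscle form from its long transcripts and small cytoskeletal forms from its short ones. It had 132.8, 158.8 and 164.0 FPKM in siNC and 179.3, 195.5 and 166.7 FPKM in siCNN3. All siCNN3 libraries were above all siNC libraries, by a small margin between siNC replicate 3 and siCNN3 replicate 3. The siNC libraries averaged 151.9 ± 16.7 FPKM and the siCNN3 libraries 180.5 ± 14.5 FPKM (SD, n = 3), and the log2 fold change was 0.25 (95% confidence interval -0.04 to 0.54, adjusted p = 0.366 by limma).

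Short forms held 98.3 ± 1.44% of the FPKM of complete Tpm3 transcripts in siNC and 99.5 ± 0.59% in siCNN3 (SD, n = 3). The main one, Tpm3-201 (exons 1b, 6a and 9d), had 118.9, 146.5 and 152.9 FPKM in siNC and 166.3, 179.3 and 151.7 FPKM in siCNN3, and the groups overlapped through replicate 3 of both. Tpm3-202 (exons 1b, 6b and 9a) had 7.97, 7.98 and 8.71 FPKM in siNC and 10.7, 15.2 and 9.31 FPKM in siCNN3. All siCNN3 libraries were higher, with a log2 fold change of 0.44 (95% confidence interval -0.06 to 0.93, adjusted p = 0.506 by limma) that was 0.25 without siCNN3 replicate 2, and its last exons too are annotated through exon 9d. The long form with exon 9d, Tpm3-204, had 3.21, 1.62 and 0.259 FPKM in siNC and 0.009, 0.009 and 1.28 FPKM in siCNN3. The long form with exon 9a, Tpm3-205, which has the exons of slow muscle tropomyosin, was between 0.460 and 1.14 FPKM in siNC and between 0.270 and 0.710 FPKM in siCNN3. Tpm3-203 (exons 1b, 6b and 9c) was between 0 and 3.11 FPKM, and Tpm3-206, an incomplete transcript between 0.301 and 0.765 FPKM, was below the filter and not tested.

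Over all transcripts of these genes, limma called 0 of the 28 tested, compared with 0.54% of the 21658 transcripts tested, and 1 (Tpm2-202) was at an unadjusted p below 0.05 (10.7% of all transcripts). The groups did not overlap in 4 of the 28, against 17.9% of all transcripts: Tpm2-202 and Tpm1-206 were lower in siCNN3 (7.54% of all transcripts) and Tpm3-202 and Tmod3-201 higher (10.4%).

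**Figure D4:**
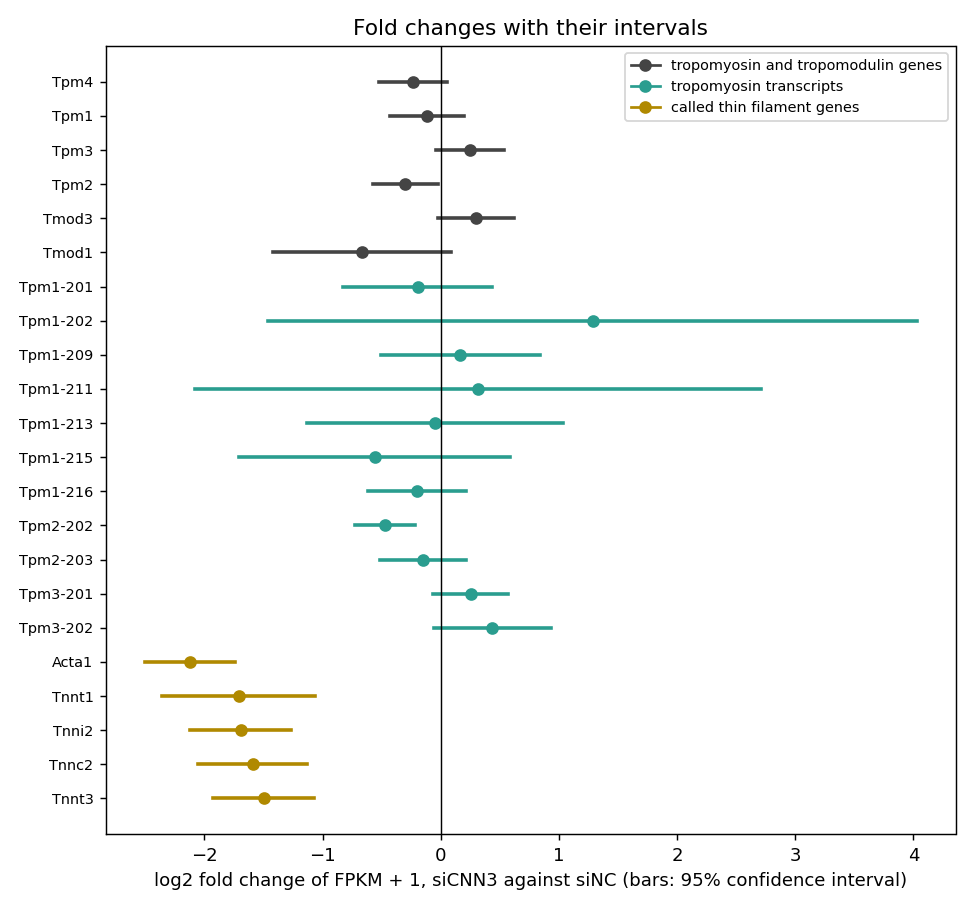
Log2 fold change of FPKM + 1 in siCNN3 against siNC (points) with its 95% confidence interval (bars) for the 6 genes, for Tpm1, Tpm2 and Tpm3 transcripts with a mean of at least 5 FPKM, and for the 5 called genes of the sarcomeric thin filament. The intervals of Tpm2 and Tpm2-202 lie below 0, those of the other tropomyosin and tropomodulin values include 0, and those of Acta1, Tnnt1, Tnni2, Tnnc2 and Tnnt3 lie below -1.

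Tropomodulins were far lower than tropomyosins. Tmod3 (chromosome 9, 75497707 to 75559657, minus strand) had 25.7, 22.5 and 26.0 FPKM in siNC and 28.7, 28.3 and 35.1 FPKM in siCNN3. All siCNN3 libraries were higher, and the log2 fold change was 0.30 (95% confidence interval -0.02 to 0.62, adjusted p = 0.338 by limma). Tmod1 (chromosome 4, 46038935 to 46116032, plus strand) had 3.09, 1.27 and 2.51 FPKM in siNC and 0.706, 0.624 and 1.94 FPKM in siCNN3. The groups overlapped, since siCNN3 replicate 3 was above siNC replicate 2, and the log2 fold change was -0.67 (95% confidence interval -1.42 to 0.09, adjusted p = 0.360 by limma). Tmod1 is also a gene of red blood cells, and the globin values given above were lower in siCNN3 as well. Their part in the Tmod1 values was not tested. The Tmod3 to Tmod1 ratio was 8.34, 17.7 and 10.3 in siNC and 40.6, 45.4 and 18.0 in siCNN3, so the highest siNC ratio was just below the lowest siCNN3 ratio (exact permutation p = 0.1, two-sided). Per 100 FPKM of tropomyosin siNC libraries had 3.21 ± 0.51 FPKM of tropomodulin and siCNN3 libraries 4.07 ± 0.42 FPKM (SD, n = 3), and the groups overlapped.

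Taken as a pool, tropomyosin FPKM were 766.4, 861.2 and 918.4 in siNC and 735.1, 786.4 and 819.3 in siCNN3, and the groups overlapped. The Tpm3 part of the pool was 17.3, 18.4 and 17.9% in siNC and 24.4, 24.9 and 20.3% in siCNN3. It was higher in every siCNN3 library (exact permutation p = 0.1, two-sided, the smallest possible), while the parts of Tpm4 (41.7 ± 3.31% and 38.4 ± 1.72%), Tpm1 (24.5 ± 2.06% and 24.4 ± 0.43%) and Tpm2 (15.9 ± 1.23% and 14.0 ± 0.67%, SD, n = 3 each) overlapped between groups. Parts of a whole are not independent of each other. The Tpm3 to Tpm2 ratio was 1.07, 1.09 and 1.23 in siNC and 1.78, 1.85 and 1.38 in siCNN3, and the Tpm3 to Tpm4 ratio 0.394, 0.486 and 0.412 in siNC and 0.657, 0.659 and 0.504 in siCNN3. In both ratios siCNN3 replicate 3 was the closest to siNC. Of the FPKM of complete transcripts, long forms held 36.1, 39.2 and 36.4% in siNC and 34.2, 34.3 and 35.0% in siCNN3, without overlap (exact permutation p = 0.1, two-sided). The difference of the means was -2.74 percentage points, and -1.76 without siNC replicate 2.

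**Figure D5:**
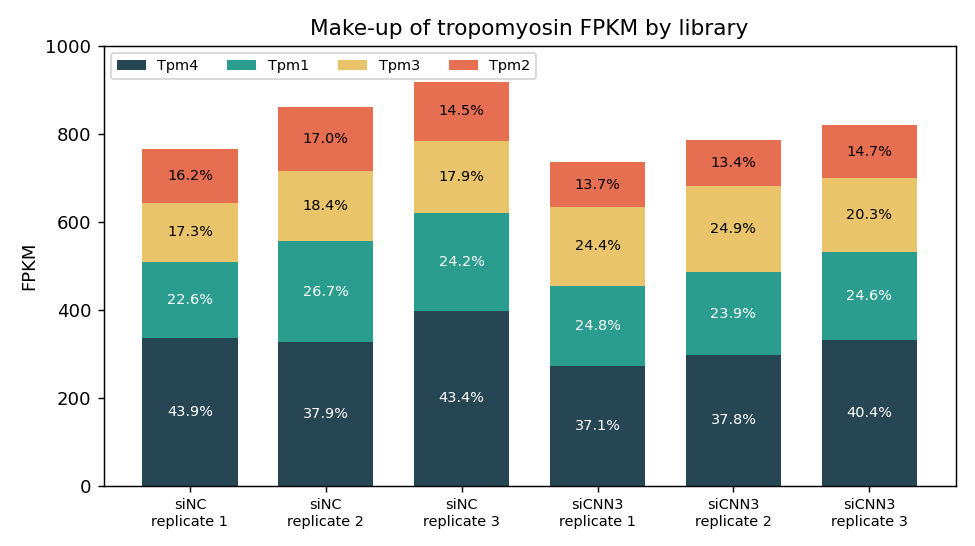
Tropomyosin FPKM in each library, stacked by gene from Tpm4 at the bottom to Tpm2 at the top, with the percentage of the library's tropomyosin FPKM written in each block. The Tpm3 block holds 17.3 to 18.4% in siNC and 20.3 to 24.9% in siCNN3, and the totals of both groups overlap.

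The 8 transcripts that end in exon 9a, summed over Tpm1, Tpm2 and Tpm3, had 90.6, 91.9 and 93.0 FPKM in siNC and 66.5, 73.6 and 83.2 FPKM in siCNN3. The groups did not overlap, and siCNN3 replicate 3 was the nearest to siNC (exact permutation p = 0.1, two-sided). As a share of the FPKM of complete tropomyosin transcripts they were 10.9 ± 0.87% in siNC and 9.54 ± 0.57% in siCNN3 (SD, n = 3), and these overlapped (exact permutation p = 0.2, two-sided). The genes did not share this direction: exon 9a transcripts of Tpm2 went from 63.2 ± 0.41 to 45.4 ± 3.34 FPKM and those of Tpm3 from 8.93 ± 0.43 to 12.2 ± 2.89 FPKM without overlap, while those of Tpm1, at 19.7 ± 0.89 and 16.8 ± 6.26 FPKM, overlapped (SD, n = 3). Most of the Tpm3 sum was the short form Tpm3-202, with means of 8.22 FPKM in siNC and 11.7 FPKM in siCNN3. Tpm3-205, which has the exons of slow muscle tropomyosin, had means of 0.709 and 0.445 FPKM, with overlapping groups. The 11 transcripts that end in exon 9d summed to 732.5 ± 75.8 FPKM in siNC and to 678.7 ± 25.3 FPKM in siCNN3, which was 86.4 ± 1.14% and 87.2 ± 1.86% of the FPKM of complete transcripts (SD, n = 3), and overlapped.

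Genes of the sarcomeric thin filament, with some other sarcomere genes, were counted beside the tropomyosins. Of 23 listed 13 were tested, and 5 fell in siCNN3 by limma, compared with 0.336% of all genes tested: Acta1 (skeletal α-actin, log2 fold change -2.12), Tnnt1 and Tnnt3 (slow and fast troponin T, which binds tropomyosin, -1.71 and -1.50), Tnni2 (fast troponin I, -1.69) and Tnnc2 (fast troponin C, -1.59). None was called higher, and 2 of the 13 had a log2 fold change above 0, Tnnt2 (0.27, with overlap) and Tnni3 (0.0066). The median of the 13 was -1.07 compared with 0.03 over all genes tested. Lower without overlap were 10 of the 13, against 9.35% of all genes tested. Acta1 had 24.6, 33.8 and 26.9 FPKM in siNC and 5.37, 5.35 and 6.43 FPKM in siCNN3. The number of called thin filament genes was 1 without siNC replicate 3, without siCNN3 replicate 1 or without siCNN3 replicate 2, and 2 with replicate number as a block.

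In the other lists that touch tropomyosin, limma called no gene. Of 27 stress fibre partners 0 were called and 5 were at an unadjusted p below 0.05 (2.06% and 16.1% of all genes tested), with a median log2 fold change of -0.17. The largest that did not overlap were Acta2 (smooth muscle α-actin, -0.77), Myl9 (-0.69) and Myl12b (-0.48), both regulatory light chains of non-sarcomeric myosin. Of 33 genes of actin assembly and turnover 0 were called and 10 were at an unadjusted p below 0.05, with a median of -0.16 and Coro1c (a coronin, -1.39), Gsn (gelsolin, which severs filaments, -0.49) and Ssh2 (a phosphatase that activates cofilin, -0.47) as the largest without overlap. Coro1c had 30.3 FPKM in siCNN3 replicate 1 and 8.69 and 8.38 FPKM in the other 2.

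Of 22 splicing regulators 0 were called by limma and 1 was at an unadjusted p below 0.05 (2.06% and 16.1% of all genes tested). Their median log2 fold change was -0.04, and their part in the exon choices above was not tested. The 3 of 22 without overlap (23.1% of all genes tested) were Celf2 (-0.41), Rbfox2 (0.25) and Khsrp (-0.16). Rbfox1, below the filter and not tested, had 0.501, 0.478 and 0.594 FPKM in siNC and 0.180, 0.077 and 0.132 FPKM in siCNN3, also without overlap. Ptbp1, a repressor of muscle exons, tropomyosin exons among them, had 11.6, 36.9 and 17.1 FPKM in siNC and 30.0, 25.4 and 16.5 FPKM in siCNN3, a log2 fold change of 0.24 with overlapping groups (adjusted p = 0.814 by limma). Rbfox1 and Ptbp1 were named after their values were seen, and not by the rule for the lists. Of 6 genes at the membrane and at the pointed end 0 were called and 1 was at an unadjusted p below 0.05, with a median of -0.29. Lmod1, a leiomodin that nucleates filaments, had 0.522, 1.01 and 1.02 FPKM in siNC and 0.369, 0.247 and 0.420 FPKM in siCNN3. The leiomodins Lmod2 and Lmod3 and the skeletal muscle tropomodulin Tmod4 were not analysed here.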

How the data were processed

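RNA-seq values of 3 siNC and 3 siCNN3 libraries were used as deposited. The authors made FPKM values for 24023 Ensembl transcripts, and had the sequencing analysed by a company. The submitters' processing notes name Bowtie 0.12.2 and the builds mm8 and mm10 without a role, and the program that estimated transcript FPKM is not given in the sources used here. Strand use is likewise not given. An exact 0 can be a failed estimate: 288 transcripts had 0 in 1 library while another replicate of that group had at least 10 FPKM.

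Identifiers were matched without version to GENCODE M21 (GRCm38) for 23949 transcripts, and the other 74, with 0.159 to 0.220% of a library's FPKM, were left out. Exons were labelled by their order along the gene, and their sequences were cut from the GENCODE M21 transcript sequences. FPKM were summed per gene. Genes and transcripts whose mean reached 0.5 FPKM were fitted as log2(FPKM + 1), on which scale all log2 fold changes are given and which understates changes of low values, with limma 3.58.1 in R 4.3.3 (mean-variance trend, no block, two-sided, Benjamini-Hochberg over all features, threshold 0.05). Transcript usage was tested with diffSplice of limma, which made false calls on simulated data with nothing changed. A limma fit of the log2 share of each transcript in its gene, added after seeing this, made none. Single values were compared with two-sided exact permutation tests, whose smallest p is 0.1 for 3 against 3. Where a library is left out of a fit, the remaining libraries of its group carry the spread. No count test was run, since the values are not counts.

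The genes and lists were chosen with earlier results of these data known. Named are the member genes and their transcripts, and Cnn3. From the thin filament list and the other lists that touch tropomyosin, the called genes or otherwise the 3 largest without overlap are named. From the cell marker lists the called genes are named, and from the interferon list none. Other genes are named for their part in a sum, for going the other way, for following Tpm2, as not analysed, or after their values were seen. Deviations of same-numbered siNC and siCNN3 libraries correlated at -0.28, 0.31 and -0.02. The numbers were not taken as pairs, though this cannot tell whether such libraries were handled together. Alternatives were the pseudocount, the filter, the scaling, the trend, the block, gene sums of only protein coding transcripts, transcripts at 0 and each library left out. The last 2 were also run for the exon shares.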

Additional observations from a re-analysis of the deposited data

How the results depend on the processing

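The number of called member genes stayed at 0 under all alternatives run, and that of member transcripts at 0 to 1 with 1 library left out (Tpm1-212 without siCNN3 replicate 3). None of 89 recomputed gene fold changes reversed: log2 values ranged from -0.27 to -0.04 for Tpm1, -0.45 to -0.24 for Tpm2, 0.11 to 0.31 for Tpm3, -0.35 to -0.15 for Tpm4, -1.08 to -0.49 for Tmod1 and 0.19 to 0.35 for Tmod3, and the lowest adjusted p of limma was 0.0913. With 1 library left out, log2 fold changes reversed for Tpm1-201 (-0.47 to 0.0079), Tpm1-209 (-0.14 to 0.39), Tpm1-211 (-0.37 to 1.25) and Tpm1-213 (-0.42 to 0.44), and the cause was not tested. Of all genes tested, limma called 239, but 152 without transcripts listed at 0 in any library and 20 to 605 with 1 library left out (20 without siNC replicate 3, 605 without siCNN3 replicate 3). The replicate block called 68 genes and no member. The correlations of same-numbered libraries' deviations were -0.28, 0.31 and -0.02, and not every library correlated best with its own number. With 3 libraries a group this cannot tell whether same-numbered libraries were handled together. Thin filament calls, an alternative chosen after seeing the data, were 2 with the replicate block or a mean of at least 5 FPKM, 3 without transcripts at 0, and 1 to 7 with 1 library left out. Of 49 recomputed differences in exon share, added after seeing the data, none moved by more than the SD pooled over both groups, but that of Tpm1 exon 9a (-0.815 percentage points) ranged from -2.37 to 0.29 with 1 library left out, and that of exon 9a over all tropomyosins (-1.36) was -0.887 without siNC replicate 1. Cnn3 passed without siCNN3 replicate 2 (adjusted p = 0.0475 by limma). Under another scaling the median of all genes shifted by less than 0.1 on the log2 scale. Quantile normalization gave the lowest log2 fold changes of Tpm1, Tpm2, Tpm3, Tpm4 and Tmod3 among the alternatives, with Tpm3 going from 0.25 to 0.11. Tmod1, Tpm1-206 and Tpm1-212 had no value at the filter of 5 FPKM, Tpm1-202 none without transcripts at 0, and diffSplice without a trend was not run. Depth is unknown and limits what the lowest transcripts can show.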

Other observations

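Over the 6 libraries, the genes whose log2 values followed Tpm2 most closely were Copb2 (r = 0.9996), 2510009E07Rik (0.996), Ccdc124 (0.993), Sfxn3 (0.993) and Fndc10 (0.992). These were the highest of all genes tested, the libraries share their group difference, and the values are given as a description.

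RefSeq promoter windows of GRCm38.p6, from 250 bases before to 50 bases after a start, were found for 6 of the 7 genes, Tmod3 having no entry. The E-box CANNTG, bound by MyoD and its relatives, was searched on both strands. It occurred in the windows of Tpm1, Tpm2, Tpm3, Tpm4 and Tmod2 and not in that of Tmod1, compared with 72.3% of all 32851 windows. The MCAT element CATTCC occurred in those of Tpm1 and Tmod1, compared with 14.7% of all windows. The CArG box, bound by serum response factor, occurred in none of them and in 1.63% of all. A match is only a description of the letters in the window.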
